A study of Mus musculus with 696 samples.

Results

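The comparison of skin 1 week after a second wound with skin that had healed for 8 weeks after a first wound rests on 349 of the 696 single keratinocytes of the series and on 4 of its 8 plates. Its members were all cells of the time points 8w pw1 (healed skin, 85 and 87 cells on 2 plates) and 1w pw2 (second wound, 86 and 91 cells on 2 plates), chosen by their labels. The counts of each gene were summed over the cells of a plate, and plates were compared. The study asked whether the progeny of Lrig1 stem cells of the upper hair follicle keep a trace of a first injury and respond otherwise to the next. Tail skin of mice was wounded at full thickness, left to close, and wounded again over the same place. Labelled epidermal cells were sorted into plates and read with Smart-seq2, a full-length method without molecular identifiers.

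All cells came from female mice of a mixed CBA and C57BL/6 background that carried Lrig1-EGFP-ires-CreERT2 and the Rosa26-fl/STOP/fl-tdTomato reporter. A single topical dose of hydroxytamoxifen was given 1 week before the first wound, a punch of 2 mm. The 8w pw1 cells were thus taken from skin wounded 1 time, and the 1w pw2 cells from skin wounded a second time at 8w and collected 1 week later. Both groups share the alleles, the tamoxifen and the first wound, and differ by the second wound and by 1 week of age. Cre was driven by Lrig1, so that the tomato-positive cells are the progeny of cells that used this gene at labelling, and the sorted tissue held the wound bed together with hair follicles at a distance from it. The labels do not tie plates to animals, so p-values measure the spread between plates, which may be technical. The study's methods speak of independent experiments with several animals each, without saying which plate came from which. The letter in the plate labels, RepB or RepF, differs with the time point and cannot be told apart from it.

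Keratinocytes at a wound edge stop their usual programme, switch on the stress keratins 6, 16 and 17, loosen their anchorage to the basement membrane, and move under the clot. They also make protease inhibitors, antimicrobial proteins and precursors of the cornified envelope, the cross-linked protein shell of the outermost epidermis. In unwounded skin these keratins belong mainly to hair follicles and nails, and healed skin is thought to return to a near resting state.

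The plate sums held 12293095 and 15612273 counts in 8w pw1 (replicates 1 and 2, in that order throughout) and 12950047 and 18288372 in 1w pw2. Median counts per cell were 105582 and 64979 in 8w pw1 and 122416 and 141062 in 1w pw2, and mitochondrial transcripts made up 23.1% and 25.3% against 18.4% and 18.8% of the counts. Of 8w pw1 replicate 2, 12.1% of all counts came from 1 cell. Krt14, the basal keratin that defines these cells as keratinocytes, was found in 82 of 85, 81 of 87, 73 of 86 and 73 of 91 cells. Summed markers of other cell types stayed low: the 4 T cell genes found summed to 4.32 and 3.26 CPM (the count as a rate of the TMM-scaled library total) against 2.73 and 4.91 CPM, and the 5 fibroblast genes to 3.10 and 4.31 against 3.71 and 15.9 CPM. The 5 myeloid genes summed to 2.52 and 9.59 against 3.78 and 37.0 CPM, and neutrophil genes reached at most 2.70 CPM on any of these 4 plates. Kdr, an endothelial receptor, had 0, 4, 0 and 0 counts. Pecam1, listed as endothelial, was found in nearly every cell at 856 and 1846 against 308 and 911 CPM, while Vwf, another endothelial gene, reached at most 1.33 CPM. The 4 melanocyte genes summed to 76.9 and 8.42 against 22.7 and 5.02 CPM, of which Mitf made up most. The part of these cells in the results was not tested.

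Among 13853 genes tested with edgeR's quasi-likelihood test, 1 rose in 1w pw2 over 8w pw1, or 0.00722% of the genes, and 0 (0%) fell. A call asked for more than a 2-fold change and a p below 0.05 after Benjamini-Hochberg adjustment. Before adjustment, 504 genes (3.64%) were higher and 596 (4.3%) lower at p below 0.05. DESeq2 on the same plates called 290 genes, of which 140 were higher and 150 lower. The smallest two-sided p that an exact permutation of 2 plates and 2 plates allows is 0.333, and the call therefore leans on a spread shared by all genes. Below, "higher" and "lower" describe plate values, and only the gene that passed the adjusted test is said to have risen. In bulk sums of a plate, fewer cells of a type and less RNA per cell cannot be told apart.

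The gene that rose was Krt6b, a keratin of the wound edge (chr15:101676023-101680287 in GRCm38, minus strand). Healed skin held 3 and 1 counts of it, or 0.216 and 0.0652 CPM, and 1w pw2 held 1325 and 5542 counts, or 92.7 and 299 CPM. The 4 plates thus separated by more than 2 orders of magnitude, with both 8w pw1 plates close to 0. The log2 fold change was 10.40 (SE 1.03), with an adjusted p of 0.0430 in edgeR. With 4 counts in the healed group, the ratio of the rates was 1528, with a 95% counting interval of 597 to 5611. Krt6b was seen in 2 of 85 and 1 of 87 cells of 8w pw1 and in 16 of 86 and 12 of 91 cells of 1w pw2. These shares were 2.35% (exact 95% binomial interval 0.286 to 8.24%) and 1.15% (0.0291 to 6.24%) against 18.6% (11.02 to 28.4%) and 13.2% (7.004 to 21.9%). After each cell was thinned to 20000 counts, which left out 4, 14, 3 and 8 shallower cells, the shares were 0 and 0% against 10.8 and 12.05%.

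Within 1w pw2 the transcripts of Krt6b were held by few cells. In either replicate 2 cells carried at least 50% of the plate's Krt6b counts, and the highest cell carried 34.9% and 44.2%. With the highest cell of every plate left out, the log2 fold change was 11.31 (adjusted p = 0.00654), but leaving out that cell takes away nearly all counts of the healed plates and so can only raise the fold. The call was lost with only the 4 plates compared (adjusted p = 0.0696), with every cell given the same weight (0.0514) and without either plate of 8w pw1 (0.161 without replicate 1 and 0.460 without replicate 2) or of 1w pw1 (0.0746 and 0.0596). The log2 fold change stayed between 9.37 and 11.39 when any 1 of the 8 plates was left out. Of all stretches of 75 bases in its transcripts, 39.6% also occur in other genes, Krt6a and the predicted gene Gm5478 first among them, so a part of its counts depends on how reads were split between these copies.

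The 3 other stress keratins were also higher on both 1w pw2 plates, without passing the adjusted test. Krt6a, the near-identical neighbour of Krt6b (chr15:101689910-101694307), stood at 334 and 354.1 CPM in 8w pw1 and 1070.1 and 1259 CPM in 1w pw2 (log2 1.76, SE 0.44, adjusted p = 0.324, or 1.08 with every cell scaled equally). Healed skin therefore held Krt6a at a level where Krt6b was close to 0. Krt16, the type I partner of keratin 6 (chr11:100246091-100248902), stood at 42.0 and 36.1 CPM against 276 and 1037 CPM (log2 4.07, SE 0.70, adjusted p = 0.167), and 28.9% of its 75-base stretches also occur in Krt14 or the predicted gene Gm11597. Krt17, a keratin of the infundibulum and of stressed epidermis (chr11:100256217-100261029), stood at 1023 and 852 against 3214 and 1978 CPM (log2 1.47, SE 0.53, adjusted p = 0.553). Its log2 was 0.59 with a stricter filter on cells, in which cells under 2000 genes or over 20% mitochondrial counts were dropped. The plates of none of the 4 genes overlapped between the groups, where 16.8% of all genes had 1w pw2 plates higher without overlap. In 1w pw2, Krt17 was found in 70 of 86 and 72 of 91 cells and Krt6a in 52 and 47, many more than the 16 and 12 cells with Krt6b.

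The cells with Krt6b in 1w pw2 were compared with the other cells of the same plates, as a description of cells and with the thinned counts. Krt6a was found in 14 of 16 Krt6b cells against 33 of 67 others in replicate 1, and in 10 of 12 against 25 of 71 in replicate 2. For Krt16 the numbers were 9 of 16 against 18 of 67, and 11 of 12 against 17 of 71. Sprr2a1, a precursor of the cornified envelope, was found in 8 of 16 against 2 of 67, and in 9 of 12 against 4 of 71. The alarmin S100a8 was found in 13 of 16 against 13 of 67, and in 9 of 12 against 14 of 71. The glucose transporter Slc2a1 was found in 12 of 16 against 21 of 67, and in 6 of 12 against 17 of 71. Krt79, a keratin of the duct and infundibulum, went the other way, with 3 of 16 against 44 of 67 and 3 of 12 against 38 of 71. The shares with Krt6a, Krt16, Sprr2a1, S100a8 and Slc2a1 were thus higher among cells that carried Krt6b in both plates, and the share with Krt79 lower. Krt17 had no such difference, with 11 of 16 against 51 of 67 and 9 of 12 against 51 of 71. Cells of 1 plate are not replicates, so these shares were not tested. Krt6b cells were picked on their full counts, which favours deeper cells, and Krt6a shares sequence with Krt6b.

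**Figure D1:**
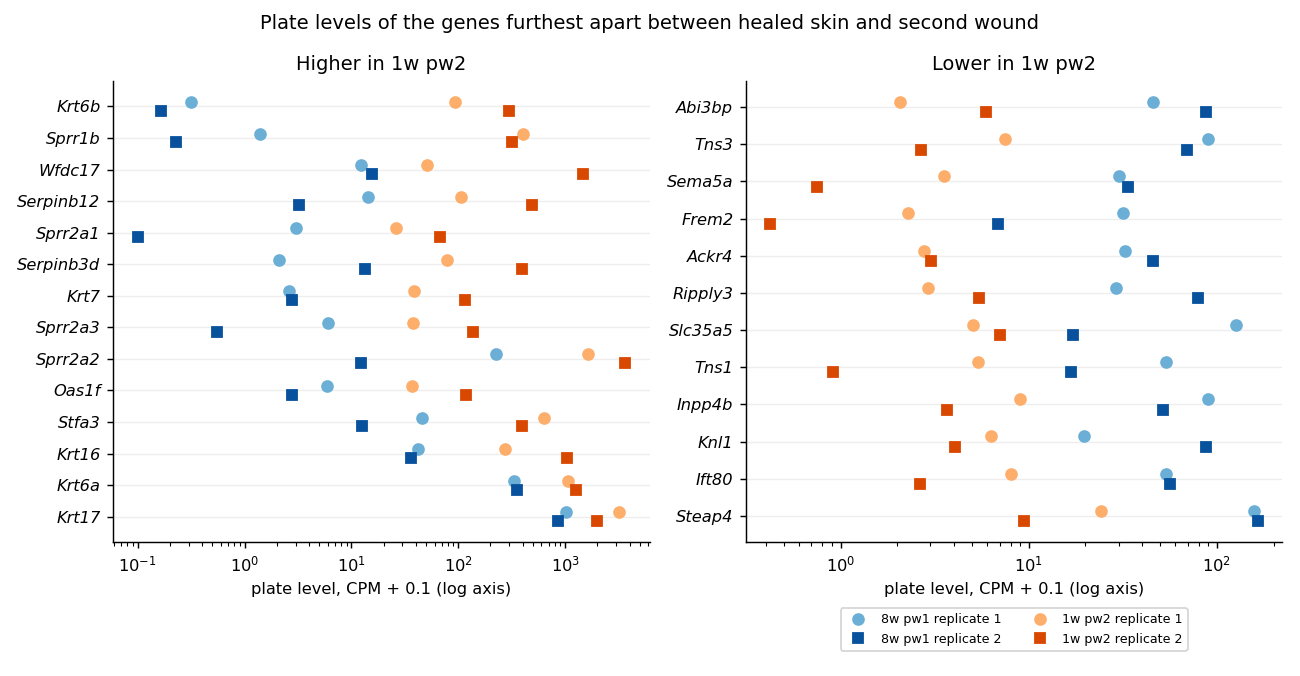
Plate levels in CPM plus 0.1, on a log axis, of the genes furthest apart between 8w pw1 (blue) and 1w pw2 (orange), with circles for replicate 1 and squares for replicate 2. The left panel holds the 12 genes furthest up together with Krt6a and Krt17, the right panel the 12 furthest down, and in none of them do the plates of the groups overlap, which the choice of the genes required of those 24 (16.8% of all genes did not overlap with 1w pw2 higher, and 16.3% with it lower).

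The genes named next are the 12 furthest up and the 12 furthest down among genes with p below 0.05 before adjustment, plates without overlap, an average log2 CPM of at least 4 and counts in at least 10% of the cells of each plate of the higher group, leaving out predicted gene models and pseudogenes by their symbols (Gm or LOC numbers, Rik, -ps). Without that exclusion 2610528A11Rik, described with the transition cluster, would be among the 12 furthest up. These measures were met by 174 genes with 1w pw2 higher and 241 with it lower. Across all 13853 genes, plates did not overlap for 2326 (16.8%) with 1w pw2 higher and 2264 (16.3%) with it lower. Since the rule used these values, they are given as a description.

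Of the 12 furthest up, 4 encode small proline-rich proteins, precursors that are cross-linked into the cornified envelope. Sprr1b stood at 1.30 and 0.1305 CPM in 8w pw1 and 399 and 316 CPM in 1w pw2, for a log2 of 8.97 (SE 1.22, adjusted p = 0.0647). It was found in 2 and 1 cells of 8w pw1 and in 19 and 27 cells of 1w pw2, and a single cell held 74.3% of its counts in 1w pw2 replicate 1. Sprr2a2 was the most abundant of the 4, at 223 and 12.3 CPM against 1641 and 3643 CPM (log2 4.49, SE 1.08). Sprr2a1 stood at 2.95 and 0 against 26.1 and 66.8 CPM (log2 4.98), and Sprr2a3 at 5.98 and 0.457 against 37.8 and 138 CPM (log2 4.77). Sprr2a1 and Sprr2a2 share 94.3% and 94.7% of their 75-base stretches with other genes, chiefly each other, and Sprr2a3 shares 47.5% with one or both of them, so their separate levels are uncertain, while Sprr1b shares none.

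Promoter sequence is shown for 3 of these genes. The first 2 hold a match to TGANTCA, read as TGAATCA in Sprr1b and as TGATTCA in Serpinb12. Sprr2a1 is an example of bases that 2 of the Sprr2a copies share also before the start. RefSeq entries for GRCm38.p6 matched 10 of the 12 genes with 11 promoters; Krt6b and Krt16 are without an entry in that table. The 250 bases before the start are given 5′ to 3′ on the strand of the gene, with matches to TGANTCA, the AP-1-like motif, and TATAAA in capitals, both searched on both strands. Sprr1b lies at chr3:92438780-92439029 on the minus strand, with TGANTCA 111 and TATAAA 30 bases before the start. Serpinb12 lies at chr1:106934199-106934448 on the plus strand, with TGANTCA 45 and TATAAA 220 bases before the start. Its other entry, at chr1:106938707-106938956 and not shown, holds TATAAA 201 bases before the start and lacks TGANTCA. Sprr2a1 lies at chr3:92215585-92215834 on the plus strand, and its 250 bases are the same as those of Sprr2a2.
Sprr1b: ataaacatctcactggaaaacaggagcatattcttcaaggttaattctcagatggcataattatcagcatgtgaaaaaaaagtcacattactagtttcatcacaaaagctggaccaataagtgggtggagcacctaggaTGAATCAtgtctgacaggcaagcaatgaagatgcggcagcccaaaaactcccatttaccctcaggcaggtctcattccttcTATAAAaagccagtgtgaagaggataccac
Serpinb12: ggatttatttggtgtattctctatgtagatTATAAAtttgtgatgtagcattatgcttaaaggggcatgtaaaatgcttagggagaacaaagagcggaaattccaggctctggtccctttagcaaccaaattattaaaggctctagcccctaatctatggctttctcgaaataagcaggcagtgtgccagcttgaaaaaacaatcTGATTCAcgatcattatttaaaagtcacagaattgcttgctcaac
Sprr2a1: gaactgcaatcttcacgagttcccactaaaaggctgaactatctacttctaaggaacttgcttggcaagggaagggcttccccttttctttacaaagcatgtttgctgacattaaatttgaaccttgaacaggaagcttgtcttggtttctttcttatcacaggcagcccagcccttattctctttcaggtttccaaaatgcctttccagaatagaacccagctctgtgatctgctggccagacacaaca
Among all 32851 promoters of the table, 6.75% hold TGANTCA and 12.4% hold TATAAA. Of the 11 promoters matched, 2 hold the former and 4 the latter. A match describes letters and no binding was measured.

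Members of protease inhibitor families made up another 4 of the 12. Serpinb12, an intracellular serpin of epithelia, stood at 14.2 and 3.13 CPM in 8w pw1 and 106 and 493 CPM in 1w pw2 (log2 5.11, SE 0.98, adjusted p = 0.263), and was found in 7 and 5 cells against 28 and 37. Serpinb3d, a squamous cell carcinoma antigen homologue, stood at 2.02 and 13.3 against 78.2 and 396 CPM (log2 4.95, SE 1.07), with 59.7% of the counts of 1w pw2 replicate 1 in 1 cell. Stfa3, a stefin that inhibits cysteine proteases, stood at 46.1 and 12.5 against 634 and 392 CPM (log2 4.13, SE 0.70, adjusted p = 0.167). It was the broadest of the group, with 20 and 14 cells in 8w pw1 and 44 and 52 in 1w pw2. Wfdc17, a whey acidic protein domain gene, stood at 12.2 and 15.5 against 51.0 and 1472 CPM (log2 5.78, adjusted p = 0.387). Here the 1w pw2 plates differed far more from each other than those of 8w pw1, and 1 cell held 50.4% of the counts of replicate 2. Without that plate the log2 was 1.93.

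The remaining 4 of the 12 were Krt6b and Krt16, given above, Krt7 and Oas1f. Krt7, a keratin of simple and ductal epithelia, stood at 2.52 and 2.67 CPM in 8w pw1 and 38.1 and 115 CPM in 1w pw2 (log2 4.87, SE 0.78, adjusted p = 0.141). It was spread over 37 and 33 cells of 1w pw2 against 13 and 9 cells of 8w pw1. Oas1f, of the oligoadenylate synthetase family, stood at 5.76 and 2.67 against 37.0 and 119 CPM (log2 4.21, SE 0.81, adjusted p = 0.263), in 31 and 40 cells against 10 and 7.

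The 12 genes furthest down follow by their roles. Abi3bp, an extracellular matrix protein (chr16:56477878-56690135), stood at 45.4 and 87.0 CPM in 8w pw1 and 1.96 and 5.83 CPM in 1w pw2 (log2 -4.08, SE 0.85, adjusted p = 0.275). Tns3 and Tns1 encode tensins, which link integrins to actin. Tns3 (chr11:8431652-8664535) stood at 89.3 and 69.5 against 7.35 and 2.59 CPM (log2 -4.00, SE 0.82), in 36 and 30 cells against 10 and 7. Tns1 stood at 53.2 and 16.6 against 5.25 and 0.809 CPM (log2 -3.53, SE 1.05), in 42 and 31 cells against 12 and 4. Frem2, a basement membrane protein of the Fraser complex, stood at 31.5 and 6.72 against 2.17 and 0.324 CPM (log2 -3.95, SE 1.47). Healed skin thus held both tensins in many cells and the second wound in few. The guidance protein gene Sema5a stood at 30.2 and 33.7 against 3.43 and 0.647 CPM (log2 -3.98, SE 0.95).

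Ackr4, an atypical receptor that scavenges chemokines (chr9:104084157-104126933), had the lowest adjusted p of these 12 genes. It stood at 32.3 and 45.8 CPM in 8w pw1 and 2.66 and 2.91 CPM in 1w pw2 (log2 -3.80, SE 0.58, adjusted p = 0.114), in 25 and 26 cells against 4 and 7. Steap4, a metalloreductase, was the most abundant of the 12, at 158 and 165 against 24.1 and 9.39 CPM (log2 -3.27, SE 0.73). The phosphoinositide phosphatase gene Inpp4b stood at 89.9 and 51.8 against 8.89 and 3.56 CPM (log2 -3.51, SE 0.68). Ift80, of intraflagellar transport in cilia, stood at 53.5 and 56.3 against 7.98 and 2.54 CPM (log2 -3.39, SE 0.70). Replicate plates of 8w pw1 lay closer together for these genes than for the remaining 3. Ripply3, a transcriptional repressor, stood at 29.1 and 79.1 against 2.80 and 5.34 CPM (log2 -3.73, SE 0.81). Slc35a5, a nucleotide sugar transporter, stood at 126 and 17.0 against 4.97 and 6.91 CPM (log2 -3.58, SE 0.99), with 81.5% of the counts of 8w pw1 replicate 1 in 1 cell and a log2 of -0.89 with the stricter filter on cells. Knl1, a kinetochore scaffold, stood at 19.4 and 87.0 against 6.23 and 3.94 CPM (log2 -3.39, SE 0.87) and at a log2 of 0.26 with that filter.

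**Figure D2:**
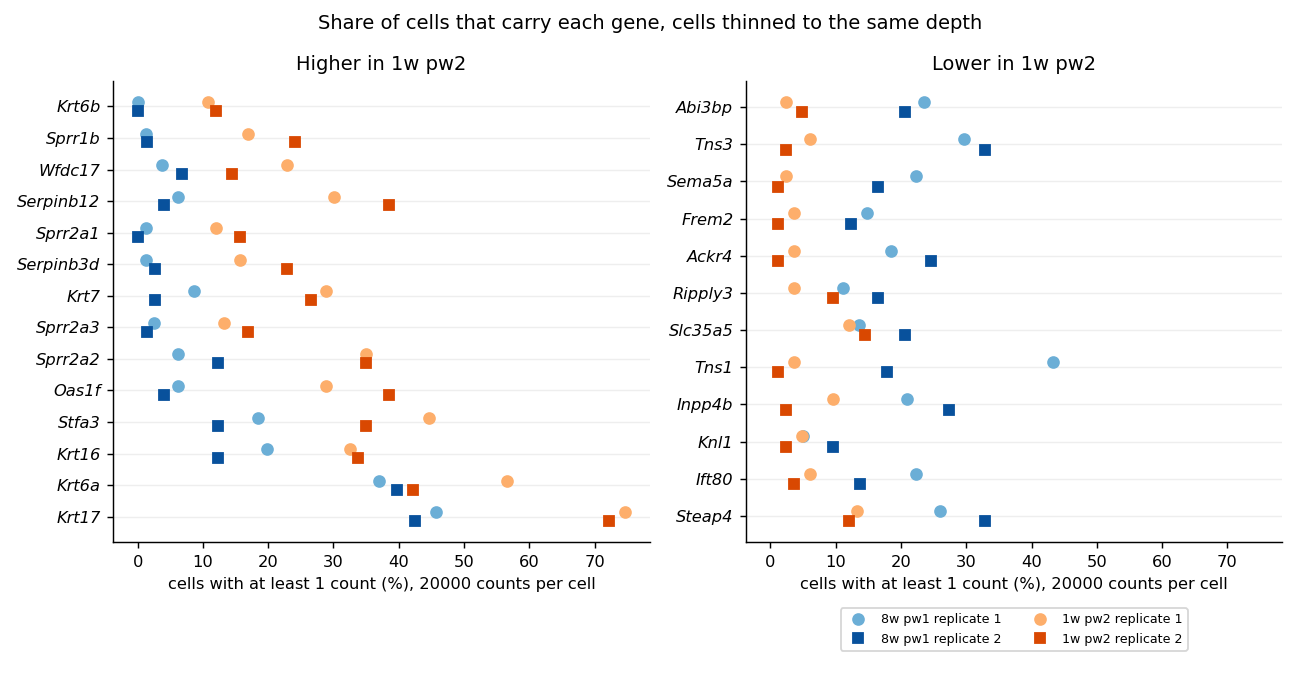
Share of cells in percent with at least 1 count of each gene after every cell was thinned to 20000 counts, for the 4 plates (blue for 8w pw1, orange for 1w pw2, circles for replicate 1, squares for replicate 2). Krt6b was carried by 0 and 0% of 8w pw1 cells against 10.8 and 12.05% of 1w pw2 cells, whereas Krt17 was already found in over 40% of the healed cells.

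To place these genes, lists of wound, differentiation and metabolism genes were counted. For each list the members at p below 0.05 before adjustment are set beside the background of 3.64% higher and 4.3% lower, and the median log2 fold change beside 0.01 for all genes, of which 50.5% were above 0. Among stefins and cystatins of the epidermis, 8 of 11 tested genes were higher at that level and 0 lower, with a median log2 of 3.68. That median was 5.36 without 8w pw1 replicate 1, 3.04 without 8w pw1 replicate 2 and 6.22 with the stricter filter on cells. Cstdc6, a stefin-like gene, stood at 0.288 and 0.0652 CPM against 25.9 and 22.6 CPM (log2 7.07, SE 0.93, adjusted p = 0.0647). Cstdc5, the most abundant of those that differed, stood at 331 and 77.8 against 2661 and 2566 CPM (log2 3.68). Csta3 stood at 0.144 and 0 against 4.41 and 22.6 CPM, a ratio of 214 with a counting interval of 58.9 to 1773 on 2 healed counts. Stfa3 is given above. Summed over the list, 1w pw2 did not stand apart, because Cst6, a cystatin of the infundibulum with most of the counts, stood at 9915 and 11194 against 20967 and 6366 CPM.

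Clade B serpins, intracellular protease inhibitors, had 8 of 15 genes higher and 0 lower, with a median of 2.83, or 1.06 without 1w pw2 replicate 2. Besides Serpinb12 and Serpinb3d they included Serpinb3a, at 2.59 and 0.979 CPM in 8w pw1 and 15.7 and 185 CPM in 1w pw2 (log2 5.81), and Serpinb3c, at 3.24 and 4.96 against 8.26 and 58.9 CPM (log2 3.03). Both stood far higher on replicate 2 of 1w pw2 than on replicate 1. Of the alarmins and antimicrobial proteins 6 of 18 were higher and 0 lower, with a median of 2.32. Their summed level went the other way, at 7216 and 11806 CPM in 8w pw1 and 5431 and 4975 CPM in 1w pw2. Defb6 holds most of the 8w pw1 sums and stood lower in 1w pw2, as did Defb1 (361.8 and 625.6 against 197.8 and 163.3 CPM). S100a9, of the calprotectin pair, stood at 10.01 and 0 against 20.1 and 103 CPM (log2 3.62, SE 1.67, p = 0.0574 before adjustment), so it did not reach that level. Wfdc18 stood at 10.3 and 2.94 against 78.5 and 38.4 CPM (log2 3.14, or 0.70 with every cell scaled equally), and Il1rn, the interleukin 1 receptor antagonist, at 13.5 and 5.68 against 64.1 and 72.6 CPM (log2 2.83, SE 0.69, or 1.21 with every cell scaled equally). Il1rn was spread over 36 and 35 cells of 1w pw2 against 20 and 12 of 8w pw1.

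Some differentiation genes were higher as well, though none passed the adjusted test. Of 25 early differentiation genes 9 were higher and 0 lower, with a median log2 of 0.97. Krt10, the keratin of suprabasal cells, stood at 2257 and 3034 CPM in 8w pw1 and 5884 and 18932 CPM in 1w pw2 (log2 2.23, SE 0.60), and was found in 52 of 85 and 47 of 87 cells against 73 of 86 and 81 of 91. Krt1, its partner, stood at 734 and 154 against 4401 and 2977 CPM (log2 3.05, SE 0.90), in 23 and 23 cells against 48 and 59. Calm4, a calmodulin-like protein of differentiating epidermis, stood at 278 and 356 against 1952 and 2410.3 CPM (log2 2.78, SE 0.46, adjusted p = 0.156), in 48 and 42 cells against 77 and 80. Fabp5, the epidermal fatty acid binding protein, stood at 488 and 1108 against 6338 and 8642 CPM (log2 3.23, SE 1.08), in 46 and 40 cells against 79 and 81. These 4 genes were thus found in more cells and at higher summed levels on both 1w pw2 plates. Krt2, of late suprabasal cells, stood at 363 and 739 against 868 and 10469.8 CPM (log2 3.36), but 1 cell held 70.0% of replicate 2, without which the log2 was 0.70. The suprabasal marker Mt4 stood at 233 and 78.8 against 425 and 315 CPM (log2 1.25, p = 0.0967 before adjustment, or 0.64 with every cell scaled equally). All 9 interscale markers, genes of the tail epidermis between the scales, had a log2 above 0, and 7 were at p below 0.05. They include Krt10, Krt1 and Krt2, but also Stfa3, Serpinb12 and Csta1, a stefin named after its values were seen. These genes are counted in other lists too, so the interscale list is not separate from those. Its median of 2.90 is the value of Csta1. Of 8 suprabasal markers 4 were higher and 0 lower, namely Krt1, Krt10, Flg and Lor, with a median of 1.74. Without 1w pw2 replicate 1 this median was 0.91. Lor, the loricrin gene and named after its values were seen, stood at 0.144 and 0.0652 against 7.56 and 1.08 CPM, with 98.1% of 1w pw2 replicate 1 in 1 cell.

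Cornified envelope genes had 12 of 29 members higher and 1 lower, with a median of 2.57, or 2.50 with members at 0 counts set at their bound. Flg, the filaggrin precursor, stood at 0.936 and 8.48 CPM in 8w pw1 and 444 and 1.08 CPM in 1w pw2, with 99.3% of the counts of 1w pw2 replicate 1 in 1 cell. Without that plate its log2 fold change was -2.13, against 5.56 with all plates. Rptn stood at 8.06 and 0.1305 against 147 and 125 CPM (log2 5.06, p = 0.0816 before adjustment), with 99.7% of replicate 1 in 1 cell, and Hrnr, at 0 and 0.196 against 7.84 and 0.378 CPM, had a ratio of 35.3 (counting interval 11.8 to 174). Hrnr was found in 4 and 2 cells of 1w pw2, of which the highest held 58.9% and 57.1%. The terminal envelope genes Flg, Rptn and Hrnr were thus seen in few cells of 1w pw2. The member that was lower, Sprr2i, stood at 37.3 and 0 against 0.630 and 0 CPM. All its healed counts were on 1 plate from 1 cell, and it was named after its values were seen. Of 8 scale markers 3 were higher and 0 lower, with a median of 0.60. Krt84 stood at 1.51 and 0.0652 against 10.8 and 449 CPM and Krt36 at 0.288 and 14.7 against 8.89 and 1214 CPM, with 94.7% and 99.4% of replicate 2 in 1 cell. The plates of Krt36 overlapped, and its log2 was 0.27 without that replicate against 6.34 with it. For Krt84 the log2 was 8.19, and at the lowest 3.84 with 1 plate left out. Krt24 stood at 3.74 and 7.50 against 18.8 and 66.9 CPM (log2 2.93).

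Of 15 basal keratin and hemidesmosome genes 0 were higher and 2 lower at p below 0.05, with a median log2 of -0.78, and 12 of 15 had a log2 below 0. Dst, the plakin of the hemidesmosome, stood at 532 and 416 CPM in 8w pw1 and 153 and 160.3 CPM in 1w pw2 (log2 -1.60, SE 0.52). Itga3, a laminin-binding integrin named after its values were seen, stood at 52.1 and 29.9 against 12.1 and 2.21 CPM (log2 -2.52). Col17a1, a transmembrane collagen that holds the cell to its basement membrane, stood at 533 and 287 against 262 and 50.6 CPM (log2 -1.39, SE 0.84, p = 0.126 before adjustment). Col17a1 was found in 70 and 71 cells of 8w pw1 and in 52 and 37 of 1w pw2. Itga6, the hemidesmosome integrin, stood at 273 and 214 against 108 and 96.63 CPM (log2 -1.25, p = 0.0631). Krt5 was found in 62 and 61 cells of 8w pw1 and 41 and 36 of 1w pw2. Col17a1 and Krt5 were thus found in fewer cells on both plates after the second wound and Krt10 in more. Krt14 was still found in most cells. Itga6 overlapped in its cells on the full counts, 66 and 54 against 55 and 47. With the thinned counts its shares did not overlap, at 67.9 and 56.2% in 8w pw1 against 42.2 and 34.9% in 1w pw2.

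Migration and protease genes had 2 of 41 members higher and 3 lower, near the background, with a median of 0.44. This median turned to -0.15 without 1w pw2 replicate 1. Mmp9, a gelatinase, and the actin bundler Fscn1 were the higher ones, and Itga2, Thbs1 and Ccn2 the lower, with Mmp9, Fscn1 and Ccn2 named after their values were seen. Mmp9 had 0 counts in 8w pw1 and 5.32 and 10.8 CPM in 1w pw2, at least 82.2-fold higher against a floor of 3 counts over the group. Ccn2 overlapped, at 23.5 and 0.783 CPM in 8w pw1 and 1.82 and 0.809 CPM in 1w pw2, and its log2 was 0.75 without 8w pw1 replicate 1 against -3.21 with all plates, so no direction can be given for it. Itga2, the collagen-binding integrin, stood at 48.0 and 47.0 against 8.33 and 15.6 CPM (log2 -1.99, SE 0.57, or -0.34 with the stricter filter), and Thbs1, thrombospondin 1, at 138 and 99.9 against 60.6 and 28.1 CPM (log2 -1.43, SE 0.55). Desmosome and junction genes had 1 of 23 higher and 0 lower, with a median of 0.45. That gene, Gjb2, a connexin, stood at 27.1 and 14.9 against 157 and 235 CPM (log2 3.23, SE 0.69, adjusted p = 0.275), in 11 and 8 cells against 26 and 23.

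Glycolysis genes had 4 of 16 members higher and 0 lower, with a median log2 of 1.01, and 14 of 16 had a log2 above 0. Eno1, enolase, stood at 69.4 and 90.9 CPM in 8w pw1 and 291 and 416 CPM in 1w pw2 (log2 2.14, SE 0.50). Pkm, pyruvate kinase, stood at 126 and 122 against 309.7 and 482 CPM (log2 1.67), and Gapdh at 265 and 375 against 878 and 802 CPM (log2 1.39). These enzymes were found in most cells of all plates, Gapdh in 79 and 82 against 84 and 88, and Eno1 in 62 and 62 against 75 and 80. Slc2a1, the glucose transporter GLUT1 that the study followed, stood at 66.5 and 51.5 against 167 and 138 CPM (log2 1.37, SE 0.48, adjusted p = 0.518), in 40 and 33 cells against 47 and 33, with 51.9% of 1w pw2 replicate 2 in 1 cell. Hypoxia targets had 3 of 18 higher and 0 lower, with a median of 0.51. Among them Egln3, a prolyl hydroxylase, stood at 50.6 and 48.9 against 178 and 95.2 CPM (log2 1.46) and Ndrg1 at 25.6 and 16.6 against 82.6 and 36.6 CPM. Adm, named after its values were seen, stood at 0 and 0.196 against 1.75 and 1.08 CPM. Nuclear oxidative phosphorylation genes had 0 of 50 at p below 0.05 in edgeR, with a median of -0.01, whereas all 13 genes of the mitochondrial genome had a log2 below 0 (median -0.54, 0 of 13 at p below 0.05). For example, mt-Nd1 of complex I stood at 9137 and 16002 against 4209 and 7598 CPM (log2 -1.09, p = 0.0605).

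Cell cycle genes had 0 of 42 higher and 3 lower, with a median log2 of -0.59, which turned to 0.62 without 8w pw1 replicate 2 and to 1.56 under the stricter filter. Mcm6, of the replicative helicase, stood at 30.6 and 104 CPM in 8w pw1 and 13.4 and 15.1 CPM in 1w pw2 (log2 -2.24, SE 0.66). The other two were Ccne2, at 22.9 and 25.7 against 7.84 and 3.40 CPM (log2 -2.11) and named after its values were seen, and Tyms, at 29.4 and 74.5 against 25.6 and 17.6 CPM (log2 -1.26). Ccne2 turned to a log2 of 1.69 with the stricter filter on cells, and 80.2% of its counts in 8w pw1 replicate 2 came from 1 cell. Top2a, of mitotic cells, overlapped, at 31.4 and 293 against 101.1 and 16.1 CPM, with 73.0% of 8w pw1 replicate 2 in 1 cell. Without that plate its log2 was 0.97 against -1.47 with all plates, so that no direction can be given for it.

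**Figure D3:**
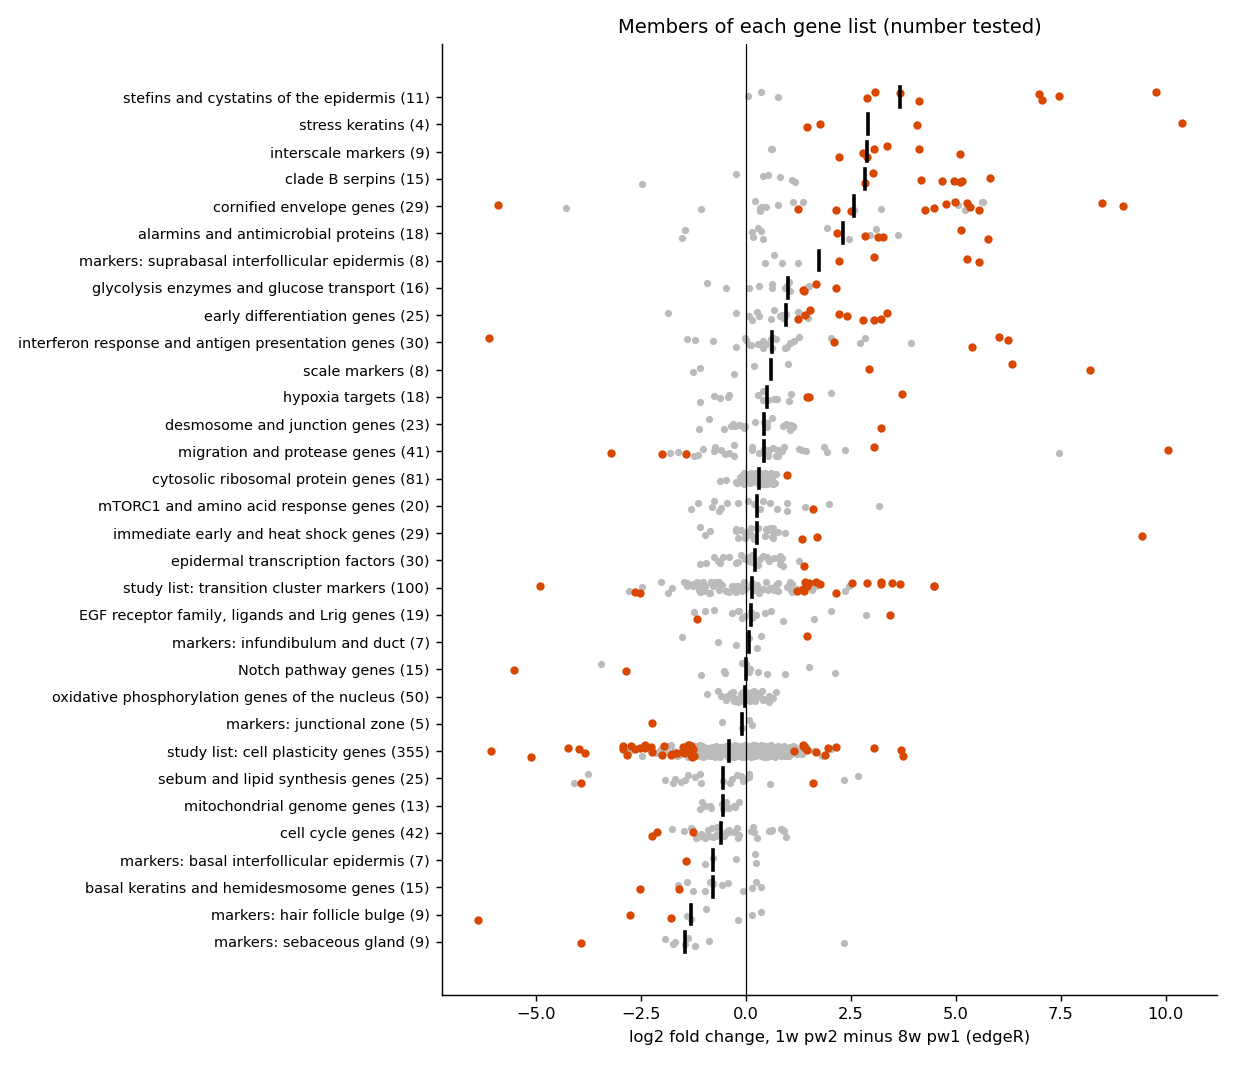
Log2 fold change (1w pw2 minus 8w pw1, edgeR) of every tested member of each list with at least 4 tested genes, lists of other cell types aside, with members at p below 0.05 before adjustment in orange, others in gray, and the median as a black bar. Stefins (median 3.68), stress keratins (2.91) and interscale markers (2.90) lie furthest to the right and sebaceous gland markers (-1.46) furthest to the left among the lists drawn. Fitted values are drawn also for members with 0 counts in a group, which have no finite fold.

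Of 9 bulge markers 0 were higher and 3 lower at p below 0.05, with a median log2 of -1.30, which is the value of Postn. The median was -0.66 without 8w pw1 replicate 1, -0.63 without 1w pw2 replicate 2 and -0.86 with the stricter filter on cells. Lgr5, of lower follicle stem cells, stood at 35.7 and 39.8 CPM in 8w pw1 and 6.65 and 15.3 CPM in 1w pw2 (log2 -1.78, SE 0.58), in 13 and 11 cells against 7 and 6. Cd34, of the bulge, stood at 10.01 and 14.4 against 1.61 and 1.996 CPM (log2 -2.75), and Tnfrsf11b at 1.08 and 5.48 against 0.0700 and 0 CPM, both named after their values were seen. Postn, periostin, a matrix protein that the study followed, stood at 731 and 321 against 143 and 284 CPM (log2 -1.30, SE 0.63, adjusted p = 0.652), and its plates did not overlap by a small margin. The study uses Postn as a marker of the infundibulum, so its place among the bulge markers is uncertain. Krt15, the keratin of the bulge that basal cells also carry, stood at 489 and 564 against 589 and 776 CPM (log2 0.38), in 54 and 52 cells against 27 and 24. Lrig1 itself, the gene that drove the labelling, stood at 45.0 and 25.4 against 35.1 and 31.1 CPM (log2 -0.09, SE 0.55). Its plates overlapped and its direction changed with the plate left out, so Lrig1 gave no difference beyond the spread between plates. Ly6a, Sca-1 of the infundibulum and epidermis, stood at 102 and 60.3 against 278 and 156 CPM (log2 1.42, SE 0.62, adjusted p = 0.621, or 0.58 with every cell scaled equally).

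Sebaceous gland markers had 0 of 9 higher and 1 lower, with a median of -1.46, or 0.090 without 8w pw1 replicate 2. The lower one was Pparg, the regulator of sebocytes, at 1.66 and 19.4 against 1.19 and 0.216 CPM (log2 -3.92, or -1.19 without 8w pw1 replicate 2), named after its values were seen. Scd1, of fatty acid desaturation, stood at 552 and 2282 against 487 and 260.2 CPM (log2 -1.92, p = 0.0787), and its log2 was -0.50 without 8w pw1 replicate 2 and -0.19 under the stricter filter. The infundibulum and duct list had 1 of 7 higher, Krt17, and 0 lower, with a median of 0.08. This median turned to -0.81 with the stricter filter on cells. Defb6, a defensin of the duct, stood at 6408 and 11080.0 against 4249 and 1875 CPM (log2 -1.51, p = 0.0662, or -0.31 with every cell scaled equally) and was found in 38 and 32 cells against 61 and 60. Junctional zone markers had 0 of 5 higher and 1 lower, Lgr6 (15.0 and 7.57 against 2.03 and 2.75 CPM, log2 -2.24), named after its values were seen.

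**Figure D4:**
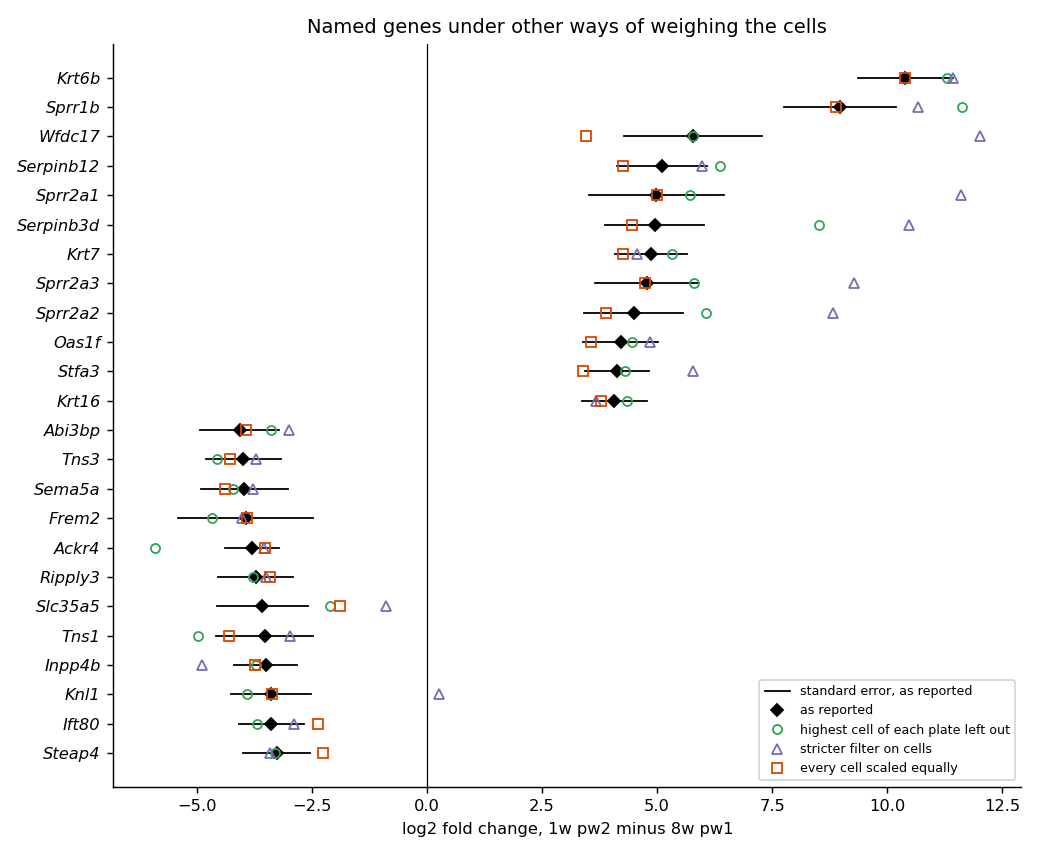
Log2 fold change with its standard error for the 12 genes furthest up and the 12 furthest down (black), beside the values with the highest cell of every plate left out (green circles), with a stricter filter on cells (purple triangles) and with every cell scaled to the same total (orange squares). Of the 24 genes, Knl1 changed its direction, at 0.26 under the stricter filter.

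The genes of the study's transition cluster, 100 markers, had 17 higher and 3 lower at p below 0.05, with a median log2 of 0.14. That median was 0.87 with the stricter filter on cells. The 355 cell plasticity genes had 12 higher and 36 lower, with a median of -0.39. The study chose both lists on these same cells, so the counts are not independent evidence. It describes the cell plasticity genes as induced more strongly in the second healing within the transition cluster. The sums here cover all cells of a plate and do not measure that cluster. In them 132 of these genes had a log2 above 0 and 223 below. In the first list 2610528A11Rik, which encodes a secreted peptide of epithelia, stood at 3.67 and 3.001 CPM in 8w pw1 and 82.1 and 68.5 CPM in 1w pw2 (log2 4.49, SE 0.56, adjusted p = 0.0647), with replicates close to each other in both groups. Esco2, of sister chromatid cohesion, stood at 41.8 and 168 against 5.18 and 1.83 CPM (log2 -4.91, SE 0.93). With the stricter filter on cells the log2 of Esco2 was -0.01, and 1 cell held 58.4% and 60.2% of its counts on the healed plates. In the second list Lratd2 stood at 10.1 and 0.457 against 94.8 and 42.7 CPM (log2 3.71, or 1.49 with the stricter filter), with 94.6% of 1w pw2 replicate 1 in 1 cell. Maml2, a Notch coactivator, stood at 204 and 32.0 against 13.6 and 17.6 CPM (log2 -2.92), with 80.3% and 82.7% of the healed counts in 1 cell of each plate. Its log2 was -1.38 without the highest cell of every plate and -0.24 with the stricter filter.

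The second wound was set beside the first, since 1w pw1 and 0w share no plates with the comparison above. The comparisons are not fully separate, because the average log2 CPM used to name genes and the spread behind the p-values were taken over all 8 plates. Krt6b stood at 0 and 0 CPM in unwounded skin (0w) and at 5141 and 2464 CPM in 1w pw1, many times the 92.7 and 299 CPM of 1w pw2. Krt16 stood at 0.727 and 1.62 CPM in 0w and 2421 and 1776 CPM in 1w pw1. Krt6a stood at 49.9 and 50.7 against 5798 and 3230.0 CPM, so that healed skin, at 334 and 354.1 CPM, started from a higher level than unwounded skin. Sprr2a2 showed the same order, with 0.208 and 0.270 CPM in 0w, 2342 and 2256 CPM in 1w pw1, and 223 and 12.3 CPM in 8w pw1. Sprr1b reached 434 and 503 CPM in 1w pw1, close to its 399 and 316 CPM after the second wound. Krt7 stood at 6.59 and 3.07 against 26.7 and 48.5 CPM, and Krt17 at 962 and 358 against 1260.1 and 1072 CPM, against 38.1 and 115 CPM and 3214 and 1978 CPM after the second wound.

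All 12 genes furthest up were higher in 1w pw1 than in 0w, each at p below 0.05, where 5.45% of all genes were higher and 6.01% lower at that level. None of the 12 genes furthest down was higher in 1w pw1, and 9 were lower at p below 0.05. Ackr4, as an example, stood at 36.7 and 33.8 CPM in 0w and 2.68 and 2.93 CPM in 1w pw1, nearly the values of the second healing. Steap4 stood at 176 and 124 against 8.82 and 33.6 CPM. Of the 504 genes higher after the second wound at p below 0.05, 394 (78.2%) were higher after the first, and of the 596 lower ones 120 (20.1%), against 48.2% of all genes. Across 6046 genes with an average log2 CPM of at least 4, the changes of the healings had a Pearson r of 0.58 and a Spearman rho of 0.41. These are descriptions across genes, which are not independent replicates, and the 4 time points share 1 scaling.

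The difference between the healings was tested as an interaction, 1w pw2 over 8w pw1 set against 1w pw1 over 0w. In edgeR 0 genes (0%) passed the adjusted threshold with the second change higher and 0 (0%) with it lower, while 740 genes were at p below 0.05 before adjustment, 333 (2.4%) and 407 (2.94%), and DESeq2 called 80. Among the 12 genes furthest up, 8 had a difference at p below 0.05 and 0 after adjustment. Krt6a had a difference of -4.73 on the log2 scale (p = 2.19e-05, adjusted p = 0.152) and Krt16 one of -6.73 (p = 4.10e-05, adjusted p = 0.189). Slc2a1, at 61.3 and 52.1 against 84.7 and 48.6 CPM in the first healing, had a difference of 1.14 (p = 0.118), which does not show that the healings differ or that they do not. The design has no plate that was wounded only at the later time, so the second wound and the later age cannot be told apart.

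**Figure D5:**
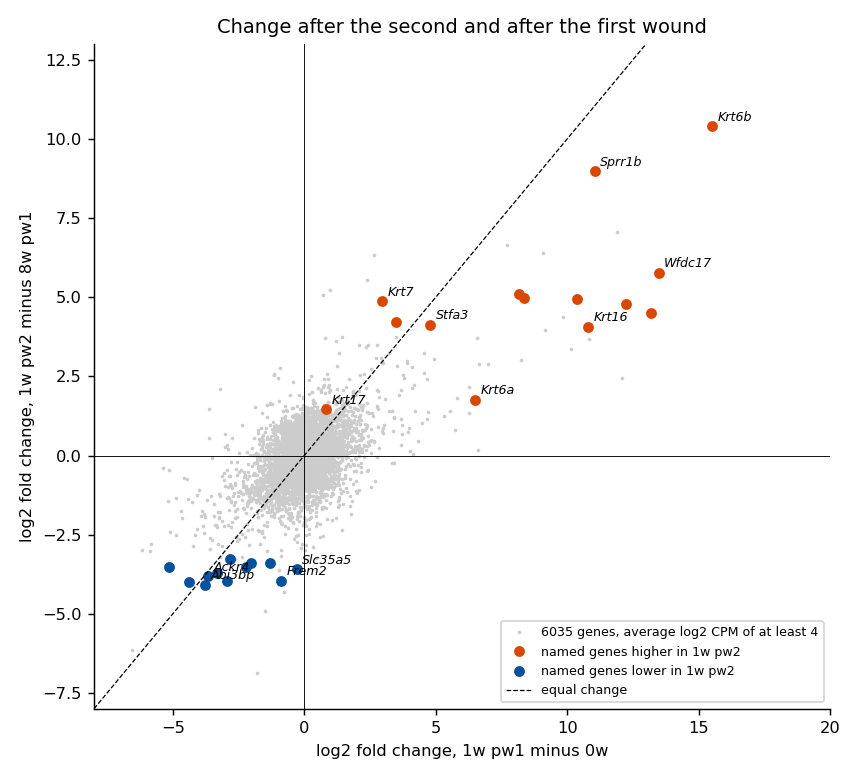
Log2 fold change of the second healing (1w pw2 minus 8w pw1) against that of the first (1w pw1 minus 0w) for 6035 genes with an average log2 CPM of at least 4 and counts in every group (gray), with the named genes higher (orange) and lower (blue) in 1w pw2 and equal change as a dashed line. Named genes with 0 counts in 0w, such as Krt6b, are drawn at the lower bound of their first change, and the orange points lie mostly right of the line while the blue ones lie around it.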

How the data were processed

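The authors deposited an estimated count, also called expected count, per gene and cell from Salmon 0.13.1 on a mouse Ensembl annotation (GRCm38), not normalised, of which 96.6% were whole numbers; how transcripts were summed to genes is not given in the sources used here. The table held 15652 genes, 696 cells, and 0 columns without a sample; all 696 cells met the study's limits of 1000 genes or more and 50% mitochondrial counts or fewer. Counts were summed per plate, rounded, and tested with edgeR 4.0.16 (R 4.3.3), where 1 model held the 8 plates and the time point was its term (default filter on low counts, TMM scaling, quasi-likelihood test, 4 residual degrees of freedom, Benjamini-Hochberg adjustment over all genes), with DESeq2 1.42.0 as an alternative. The code was tested on simulated data. Levels are TMM-scaled CPM computed from the sums. Plates of a group were checked, and the sums of the 8w pw1 plates differed in 15066 genes and those of the 1w pw2 plates in 15132. Named genes were those called, 8 genes the study followed or that mark wounds and the lineage, the 12 furthest up and down leaving out predicted gene models, and up to 4 members per list by absolute log2 fold change at an average log2 CPM of at least 4; others are said to be named after their values were seen. Members and lists were chosen with earlier results of these data known. Alternatives were other samples, scaling, filters, weights of cells and leaving out each plate. Coordinates are from GENCODE for GRCm38, matched by symbol, another release than the authors counted on. Counting intervals and floors (3 counts) cover counting error only.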

Additional observations from a re-analysis of the deposited data

How the results depend on the processing

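With 1 gene called from 13853, the count moved with the settings. It was 0 with only the plates compared, 0 with every cell scaled equally, 290 in DESeq2, 5 without a filter on low counts, 2 with the highest cell of each gene left out, 5 with the stricter filter on cells, and 0 to 7 with 1 plate left out. The replicate numbers do not pair the samples, since the labels give no shared animal or day; with the replicate block, 8 genes were called, 7 higher and 1 lower. Genes at p below 0.05 before adjustment numbered 636 against 1100 under the stricter filter, with fewer genes tested, and 871 to 1372 with 1 plate left out. For the difference between the healings, the replicate block called 3 genes against 0, DESeq2 80, equal cells 2, and leaving out 1 plate 0 to 2, where 2 came without 8w pw1 replicate 2. This difference could not be fitted with only the plates compared. Leaving out the deepest cell of 8w pw1 replicate 2, chosen after seeing the data, called 1 gene, Krt6b.

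Some log2 fold changes turned. Under the stricter filter they were 0.26 for Knl1, 1.44 for Top2a, 1.69 for Ccne2 and -0.50 for Sox9. With the highest cell left out, Sox9 stood at -0.14 and Serpinb9 at -0.97, and with cells scaled equally Plet1 at 0.038. With 1 plate left out the ranges were -0.38 to 0.39 for Lrig1, -2.13 to 7.96 for Flg, -0.14 to 2.19 for Jup, -1.75 to 0.14 for Itgav, -3.34 to 0.97 for Top2a, -2.50 to 0.090 for Cidea, -1.02 to 0.14 for Plet1, -0.17 to 0.50 for Sox9, -11.25 to 5.43 for Sprr2i, -4.10 to 0.75 for Ccn2, -0.15 to 6.39 for H2-Aa and -8.37 to 2.31 for Cxcl10. The cause was not tested. In all, the 142 named genes gave 2289 values on the same side, 84 newly past the threshold, 6 no longer past it (all Krt6b) and 21 turned. Of 659 list medians under the alternatives, 65 moved by more than the spread between replicates and 20 of these changed sign. Leaving out a plate shifted the median of all genes by over 0.1 in 3 cases, to 0.18, 0.17 and -0.13. Where a plate was left out of a group, the lone plate was assumed to vary like the others. Depth limits genes with few counts, and plates with single cells that hold most of a gene's counts limit the terminal differentiation genes.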

Other observations

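Immediate early and heat shock genes had 3 of 29 members higher and 0 lower at p below 0.05 before adjustment in 1w pw2, with a median log2 fold change of 0.26. Over all genes 3.64% were higher and 4.3% lower at that level. Junb stood at 7.56 and 9.26 CPM in 8w pw1 and 14.3 and 28.6 CPM in 1w pw2. Fosl1, another AP-1 subunit, had 0 counts in 8w pw1 and 7.84 and 2.64 CPM in 1w pw2, at least 47.8-fold higher against a floor of 3 counts over the group. Btg2 was the third of them, at 3.89 and 4.83 against 7.21 and 21.1 CPM. Interferon and antigen presentation genes had 4 of 30 higher and 1 lower, with a median of 0.63. Irf9, of the interferon-stimulated complex, stood at 3.82 and 4.50 against 20.5 and 15.3 CPM (log2 2.10), in 10 and 9 cells against 24 and 23. H2-Ab1, a class II gene, stood at 0 and 0.326 against 3.08 and 19.7 CPM, H2-Aa at 0.360 and 0.1305 against 0.210 and 20.7 CPM, and Gbp7 at 0.144 and 0 against 0.140 and 11.5 CPM. The plates of H2-Aa and Gbp7 overlapped, and without 1w pw2 replicate 2 the log2 of H2-Aa was -0.15 against 5.38 with it. The myeloid marker sum stood highest on the same plate, 1w pw2 replicate 2, at 37.0 CPM, and its part in these values was not tested. Cxcl10, the lower one, came from 1 cell on each of the plates that had it.

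Over all genes 3.64% were higher and 4.3% lower at p below 0.05 before adjustment. The lists below with 1 gene at that level lie near or below these shares, so that gene describes itself and not its list. In the EGF receptor family list 1 of 19 genes was higher, the ligand Epgn at 0 and 2.61 against 3.57 and 24.8 CPM, and 1 lower, Egfr itself, at 227 and 277 against 128 and 97.0 CPM (log2 -1.17, SE 0.46). In the Notch pathway list, which also holds Ptch1 of another pathway, 0 of 15 were higher and 2 lower. These were the ligand Jag2 at 49.5 and 12.9 against 7.07 and 1.62 CPM (log2 -2.85) and Lfng at 13.6 and 5.28 against 0.420 and 0 CPM. Of 30 epidermal transcription factors 1 was higher, Gata3, at 27.2 and 28.0 against 72.5 and 72.6 CPM (log2 1.39, SE 0.49), with replicates close in both groups. Of 20 mTORC1 and amino acid response genes 1 was higher, Slc7a11, the cystine transporter, at 4.90 and 2.61 against 13.5 and 9.12 CPM (log2 1.59). Of 81 cytosolic ribosomal protein genes 69 had a log2 above 0 and 1 was at p below 0.05, Rplp0, at 1099.5 and 1309 against 2507 and 2273 CPM (log2 0.99). The summed level of the list overlapped, at 51571 and 59375 against 78053 and 53146 CPM, and was higher on 1w pw2 replicate 1 only. Of 25 sebum and lipid synthesis genes 19 had a log2 below 0, with a median of -0.54, or 0.36 without 8w pw1 replicate 2. At p below 0.05, 1 was lower, Pparg, the lipid regulator of sebocytes, and 1 higher, Elovl4, which elongates the very long fatty acids of the epidermal barrier, at 55.5 and 75.2 against 111 and 287 CPM (log2 1.61), in 14 and 13 cells against 43 and 54. Fosl1, Btg2, Irf9, the class II genes, Gbp7, Cxcl10, Epgn and Lfng were named after their values were seen.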
